A study of Mus musculus with 12 samples.

Results

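Zic1, Zic2, Zic4 and Zic5, with the long non-coding RNA (lncRNA) gene 2610035F20Rik that lies next to Zic2, were followed in sorted cells of the embryonic mouse cortex. They were chosen by name, as Zic genes in the table of coding genes and as transcripts of 2610035F20Rik in the table of lncRNAs. The values given here are of 4 of 4859 coding genes and 2 of 200 lncRNA transcripts, which come from 5 genes, and counts of Zic genes are over these 4. The coding table also holds a value for 2610035F20Rik that names no transcript. That value lies outside the choice by name and is given beside the transcripts, under the name of gene-level value.

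Zic proteins are zinc-finger transcription factors, relatives of the GLI factors through which Hedgehog signals act. In the developing forebrain they are known from the dorsal midline, the septum, the cortical hem (a signalling centre at the medial edge of the cortex that releases WNT and BMP proteins) and the meninges. The hem and the septum are also known as birthplaces of Cajal-Retzius (CR) neurons, early neurons of the cortical surface that secrete reelin.

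The study compared cells with and without green fluorescence from the cerebral cortex of the transgenic strain Tg(Ebf2-EGFP)FB58Gsat, in which EGFP is driven by Ebf2 regulatory DNA in a bacterial artificial chromosome. Fluorescence-activated cell sorting (FACS) gave Ebf2-EGFP+ and Ebf2-EGFP- cells at 3 embryonic stages (E11.5, then E13.5, then E15.5). Each of the 6 groups had 2 libraries, 12 in all, each from pooled embryos. Both populations came from the same strain, every library carries the transgene, and the labels name no other allele and no treatment. By the study's account EGFP marks subplate and CR neurons of the early cortex at E11.5 and mostly CR neurons at E15.5, so the sorted population is not the same mix of cells at each stage. The Ebf2-EGFP- cells are all remaining cells of the dissected tissue. By the study's account most of them are progenitor cells at E11.5, with cortical plate neurons among them at E13.5 and E15.5. Their mix thus changes with stage as well.

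Levels are FPKM, fragments scaled to transcript length and to the number of mapped fragments, which allows levels to be compared between genes per length. Differences were tested with limma on log2(FPKM + 1), a scale that understates the change of genes at low FPKM, and a call needed an adjusted p under 0.05 over all features of the table. P-values measure the spread between these libraries, 2 in each group. The authors' tables hold only features they called different between the populations, so each member had to differ at some stage, and counts of calls are given beside the share of all features of the table called in the same comparison, once for all gene lists together. The study states an average number of reads for its samples, but the tables give no fragment counts, and the depth of each library is not given in the sources used here.

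The sort label was checked on Ebf2 and on Reln, which encodes reelin. Ebf2 stood at 61.2 and 49.1 FPKM in the E11.5 Ebf2-EGFP+ libraries against 1.17 and 0.952 in the Ebf2-EGFP- libraries. The E13.5 values were 6.66 and 4.32 against 1.54 and 1.05, those of E15.5 2.83 and 5.14 against 0.103 and 0.0644. Reln was 75.9 and 76.3 FPKM against 2.98 and 2.79 on E11.5, 125 and 187 against 2.77 and 4.22 in the E13.5 cells, and 399 and 925 against 13.7 and 10.6 in the E15.5 cells. Both genes were thus higher in the Ebf2-EGFP+ cells at every stage, with no overlap between the populations. Of 12 listed CR markers 11 were in the table, and 10, 9 and 10 of them were higher in Ebf2-EGFP+ cells at the successive stages, the same counts as under the median-of-ratios scaling described with the Zic results.

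The genes lie at 2 places in the genome (GENCODE M21 annotation of GRCm38, the build called mm10 in the study). Zic1, at chr9:91358058-91365810 on the minus strand, and Zic4, at chr9:91362413-91389348 on the plus strand, overlap by 3398 bases, of which 60 are exonic in both. Those 60 bases are 1.05% of the exonic bases of Zic1, and because the strand used in counting is not stated, fragments from them cannot be assigned to either gene. Zic5, at chr14:122456795-122465677 on the minus strand, and Zic2, at chr14:122475435-122479852 on the plus strand, start 9758 bases apart. Between them lies 2610035F20Rik, at chr14:122470284-122475199 on the minus strand, whose start is 236 bases from that of Zic2, with no overlap. How fragments that match several Zic genes were assigned is not given in the sources used here.

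**Figure D1:**
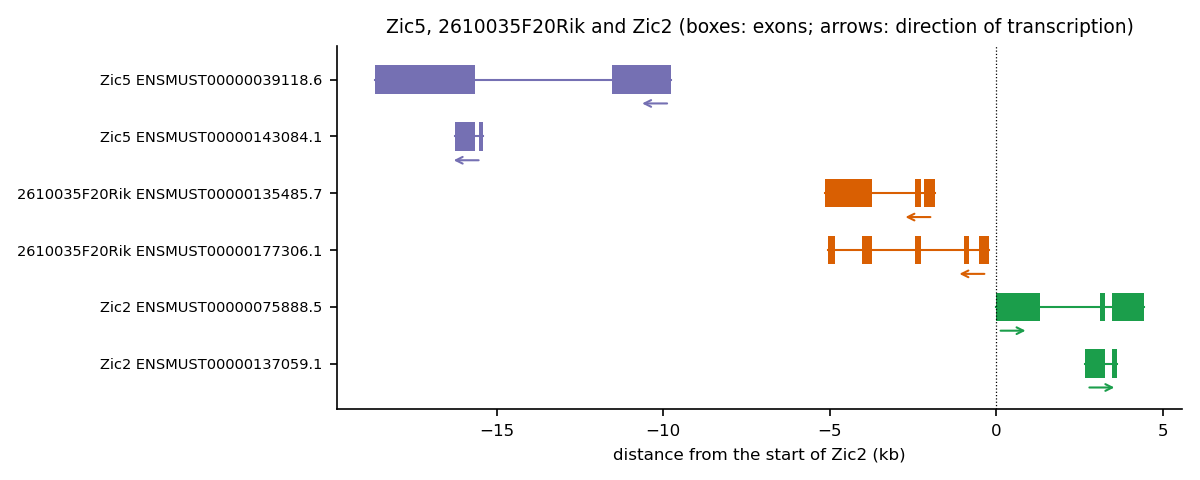
Zic5, 2610035F20Rik and Zic2 drawn to scale by distance from the start of Zic2, in kb; boxes are exons of each annotated transcript and arrows point in the direction of transcription. The 2 lncRNA transcripts run away from Zic2, and ENSMUST00000177306 starts closer to it, 236 bases away.

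The 2 transcripts of 2610035F20Rik differ in where they start. ENSMUST00000177306.1 has 5 exons and 1149 bases and starts 236 bases from the start of Zic2, while ENSMUST00000135485 has 3 exons and 1900 bases and starts 1856 bases from it. They share 697 exonic bases, 60.7% of the first and 36.7% of the second, so the authors' software had to divide fragments between them. The table lists ENSMUST00000135485.4, and the annotation used here holds version 7 of it, so its exons may differ in detail from those measured. The join of exon 1 to exon 2 tells the transcripts apart, and 30 bases on each side are shown from the GENCODE M21 transcripts (GRCm38, minus strand, joins at chr14:122474903 to 122474602 and chr14:122473271 to 122473177), with exon 1 in capitals.
2610035F20Rik ENSMUST00000177306.1: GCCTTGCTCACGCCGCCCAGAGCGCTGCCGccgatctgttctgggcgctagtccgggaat
2610035F20Rik ENSMUST00000135485.7: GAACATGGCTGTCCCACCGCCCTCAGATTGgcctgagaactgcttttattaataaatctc

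Promoters are shown because the levels of these genes were correlated over the 12 libraries. RefSeq promoters (GRCm38.p6, 250 bases before the start to 50 after it) matched 3 of the 5 genes, Zic1 (chr9:91365719-91366018, minus strand), Zic4 (chr9:91368722-91369021, plus strand, at a start that lies inside the GENCODE gene) and Zic5 (chr14:122465609-122465908, minus strand). Zic2 and 2610035F20Rik had no entry. The 5 motifs searched on both strands were CAGCAGG, known from Zic motifs, and GACCACCC, known from GLI motifs, with the GC box GGGCGG, the CCAAT box and the homeodomain core TAATTA, and matches are in capitals.
Zic1: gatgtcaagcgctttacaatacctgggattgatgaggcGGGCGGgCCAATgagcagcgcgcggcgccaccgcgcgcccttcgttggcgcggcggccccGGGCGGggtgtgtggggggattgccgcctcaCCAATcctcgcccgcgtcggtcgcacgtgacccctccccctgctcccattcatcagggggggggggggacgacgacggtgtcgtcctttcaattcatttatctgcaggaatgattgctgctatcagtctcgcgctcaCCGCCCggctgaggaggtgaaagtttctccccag
Zic4: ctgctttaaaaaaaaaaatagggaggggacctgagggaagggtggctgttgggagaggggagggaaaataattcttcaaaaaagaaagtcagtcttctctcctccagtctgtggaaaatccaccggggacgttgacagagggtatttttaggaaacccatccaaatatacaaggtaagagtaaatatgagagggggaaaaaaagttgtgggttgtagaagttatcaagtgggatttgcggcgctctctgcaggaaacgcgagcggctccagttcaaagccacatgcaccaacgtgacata
Zic5: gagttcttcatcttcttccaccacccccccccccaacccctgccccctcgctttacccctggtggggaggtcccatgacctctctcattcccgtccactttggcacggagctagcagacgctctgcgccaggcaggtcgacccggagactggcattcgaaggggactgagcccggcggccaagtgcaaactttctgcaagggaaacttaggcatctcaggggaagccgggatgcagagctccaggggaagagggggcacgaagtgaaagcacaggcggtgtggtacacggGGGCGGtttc

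GGGCGG occurred 3 times in the Zic1 promoter, at -212, -152 and 17 from the start, and once in that of Zic5, at 41. CCAAT occurred 2 times in Zic1, at -205 and -121, and no motif of the 5 was found in the Zic4 window. CAGCAGG, GACCACCC and TAATTA were in none of the 3 windows, and no 2 matches overlapped. Of 32544 mouse promoters of this length, 35.9% held GGGCGG, 37.4% CCAAT, 10.5% CAGCAGG, 5.29% TAATTA and 0.805% GACCACCC. GC content was 65.3% for Zic1, 46% for Zic4 and 62.7% for Zic5, beside a median of 53% over those promoters.

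Zic RNA was abundant at E11.5 in both populations, dropped in both by E13.5, and came back at E15.5 in the Ebf2-EGFP+ cells, where 4 of 4 genes were then higher than in Ebf2-EGFP- cells. The summed level of the 4 genes shows the course. It was 106 and 120 FPKM in the Ebf2-EGFP- libraries and 83.9 and 84.1 in the Ebf2-EGFP+ libraries at E11.5, then 18.5 and 10.1 against 22.8 and 18.1 at E13.5. By E15.5 it was 11.7 and 5.71 against 38.4 and 43.9. The Ebf2-EGFP- libraries were above the others at E11.5, the populations overlapped at E13.5, and the Ebf2-EGFP+ libraries were above at E15.5. In bulk RNA, fewer cells of a type and less RNA per cell cannot be told apart.

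**Figure D2:**
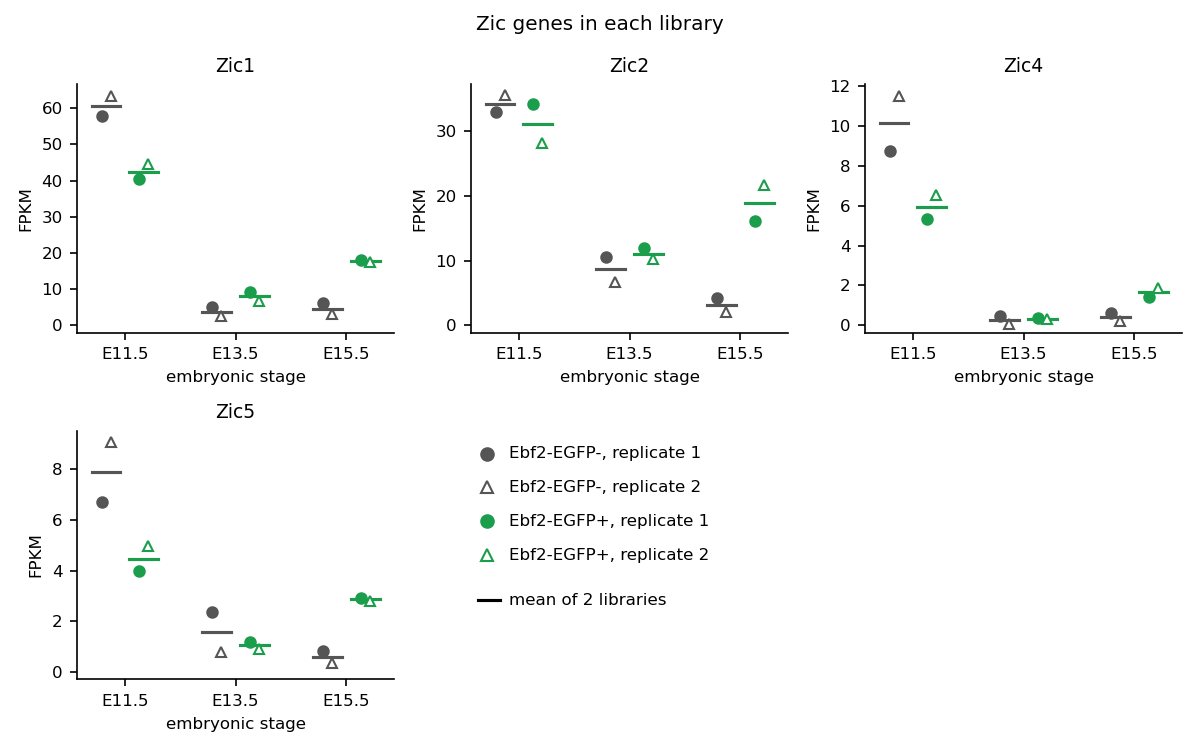
FPKM of Zic1, Zic2, Zic4 and Zic5 in each of the 12 libraries by embryonic stage; grey marks Ebf2-EGFP- and green Ebf2-EGFP+ cells, circles replicate 1, triangles replicate 2 and lines the mean of 2 libraries, with an axis for each gene. At E15.5 Zic1 stands at 18.0 and 17.5 FPKM in green against 6.05 and 3.05 in grey.

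Zic1, a factor known for its role in cerebellar and dorsal neural tube progenitors, was the most abundant at E11.5. It stood at 57.7 and 63.5 FPKM in the E11.5 Ebf2-EGFP- libraries and at 40.5 and 44.4 in the Ebf2-EGFP+ libraries. It was 5.13 and 2.47 FPKM against 9.34 and 6.64 at E13.5. The E15.5 values were 6.05 and 3.05 against 18.0 and 17.5. The populations did not overlap at any stage, with Ebf2-EGFP- cells higher at E11.5 and Ebf2-EGFP+ cells higher at E13.5 and E15.5. In order of mean level, E13.5 and E15.5 Ebf2-EGFP- cells came lowest, at 3.80 ± 1.88 and 4.55 ± 2.13 FPKM (SD, n = 2), and overlapped each other. E13.5 Ebf2-EGFP+ (7.99 ± 1.91), E15.5 Ebf2-EGFP+ (17.7 ± 0.305), E11.5 Ebf2-EGFP+ (42.5 ± 2.79) and E11.5 Ebf2-EGFP- cells (60.6 ± 4.07) followed without overlap.

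Zic2, which is required for the formation of the forebrain midline, also fell from E11.5 to E13.5 and was higher in Ebf2-EGFP+ cells at E15.5. At E11.5 it was 32.9 and 35.5 FPKM in Ebf2-EGFP- and 34.1 and 28.1 in Ebf2-EGFP+ libraries, so the populations overlapped. They were close again at E13.5, at 10.5 and 6.75 against 11.9 and 10.2 FPKM. At E15.5 they were apart, at 4.16 and 2.09 against 16.0 and 21.7 FPKM, with both Ebf2-EGFP+ libraries above both others. The E15.5 Ebf2-EGFP- cells were the lowest group at 3.13 ± 1.46 FPKM, and the neighbouring groups that overlapped were both populations of E13.5 and both populations of E11.5.

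Zic4 and Zic5 were lower in FPKM than Zic1 and Zic2 in each library. Zic4 was 8.74 FPKM or more in both E11.5 Ebf2-EGFP- libraries and 5.36 and 6.53 in the Ebf2-EGFP+ libraries, then ranged from 0.0881 to 0.460 in E13.5 libraries and from 0.217 to 1.89 in E15.5 libraries. Its E11.5 libraries were above all later ones, and both E15.5 Ebf2-EGFP+ libraries were above both E15.5 Ebf2-EGFP- libraries. Zic5 stood at 6.69 and 9.08 FPKM in Ebf2-EGFP- and 3.97 and 4.97 in Ebf2-EGFP+ libraries at E11.5. It was 2.35 and 0.802 against 1.18 and 0.922 at E13.5 and, by E15.5, 0.806 and 0.350 against 2.93 and 2.82. Its populations overlapped at E13.5 alone.

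The mix of Zic RNAs changed as well. Zic1 made up 48.2% to 54.4% of the summed FPKM of the 4 genes in the E11.5 libraries and Zic2 29.7% to 40.6%. At E13.5 Zic2 was the larger in all 4 libraries, with 52.2% to 66.8% against 24.4% to 41.0% for Zic1. At E15.5 Zic1 led in the Ebf2-EGFP- libraries with 51.9% and 53.4% against 35.7% and 36.7% for Zic2, while the Ebf2-EGFP+ libraries differed, with 46.8% and 39.9% for Zic1 and 41.8% and 49.4% for Zic2. Zic4 took 6.38% to 9.63% at E11.5 and 0.871% to 2.49% at E13.5. These shares are descriptions and were not tested.

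The question of each population comparison was how the early neurons that carry EGFP differ from the rest of the cortex at the same stage. At E15.5 4 of 4 Zic genes were called higher in Ebf2-EGFP+ cells, beside 25.8% of 4859 genes higher and 31.6% lower. The difference was 2.30 (SE 0.26) for Zic2 with an adjusted p of 2.85e-05, 1.81 (SE 0.29) for Zic1 (2.99e-04), 1.31 (SE 0.27) for Zic5 (0.00153) and 0.91 (SE 0.21) for Zic4 (0.00296). The median difference of the 4 genes was 1.56, beside -0.11 for all genes.

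At E11.5 the differences were of the other sign, and smaller. Zic4 and Zic5, 2 of 4 genes, were called lower in Ebf2-EGFP+ cells and 0 higher, beside 44.9% of all genes lower and 36.8% higher. The differences were -0.67 (SE 0.21, adjusted p 0.00972) for Zic4 and -0.69 (SE 0.27, adjusted p 0.0306) for Zic5, with no overlap of the populations. Zic1 differed by -0.50 (SE 0.29, adjusted p 0.124, or 0.0168 with the replicate number as a block) and Zic2 by -0.14 (SE 0.26, adjusted p 0.632). The median of the 4 genes, -0.59, stands beside -0.19 for all genes, and the limma count of higher genes was also 0 at an unadjusted p under 0.05.

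These E11.5 calls depended on the settings. The count of lower genes went from 2 to 0 with a pseudocount of 0.1 and to 0 when the libraries were scaled to each other by the median of ratios. Without E11.5 Ebf2-EGFP- replicate 2 it was 0, with values of -0.49 (Zic4, adjusted p 0.0882) and -0.50 (Zic5, 0.190). Without E11.5 Ebf2-EGFP+ replicate 1 it was 0 too, at -0.55 (Zic4, 0.0736) and -0.56 (Zic5, 0.157). The scaling raised the median difference of all genes by 0.19, 0.19 and 0.13 at the successive stages, and under it Zic2 at E11.5 turned to 0.12 (adjusted p 0.658) while the other Zic genes kept their sign at each stage. Its factors came from the coding genes alone and were used for the lncRNA transcripts too. The method assumes that most genes do not differ, which a table of genes called different does not secure. It therefore cannot decide which scale is the right one.

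E13.5 lay between. Zic1 alone, 1 of 4 genes, was called higher in Ebf2-EGFP+ cells and 0 lower, beside 32.1% of all genes higher and 43.5% lower, and the count of lower genes at an unadjusted p under 0.05 was 0 too. Zic1 differed by 0.95 (SE 0.29) with an adjusted p of 0.0108, and the call was lost without E13.5 Ebf2-EGFP+ replicate 1 (0.73, adjusted p 0.0839) and without E13.5 Ebf2-EGFP- replicate 2 (0.54, adjusted p 0.121), while without the latter Zic5 was called lower (-0.71, adjusted p 0.0238). Zic2 differed by 0.35 with an adjusted p of 0.240, and by 0.63 with one of 0.0280 under median-of-ratios scaling. The median of the 4 genes was 0.22, beside -0.19 for all genes. Zic4, at 0.09, was at -0.12 without E13.5 Ebf2-EGFP- replicate 2, and Zic5, at -0.26, was at 0.18 without E13.5 Ebf2-EGFP- replicate 1.

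**Figure D3:**
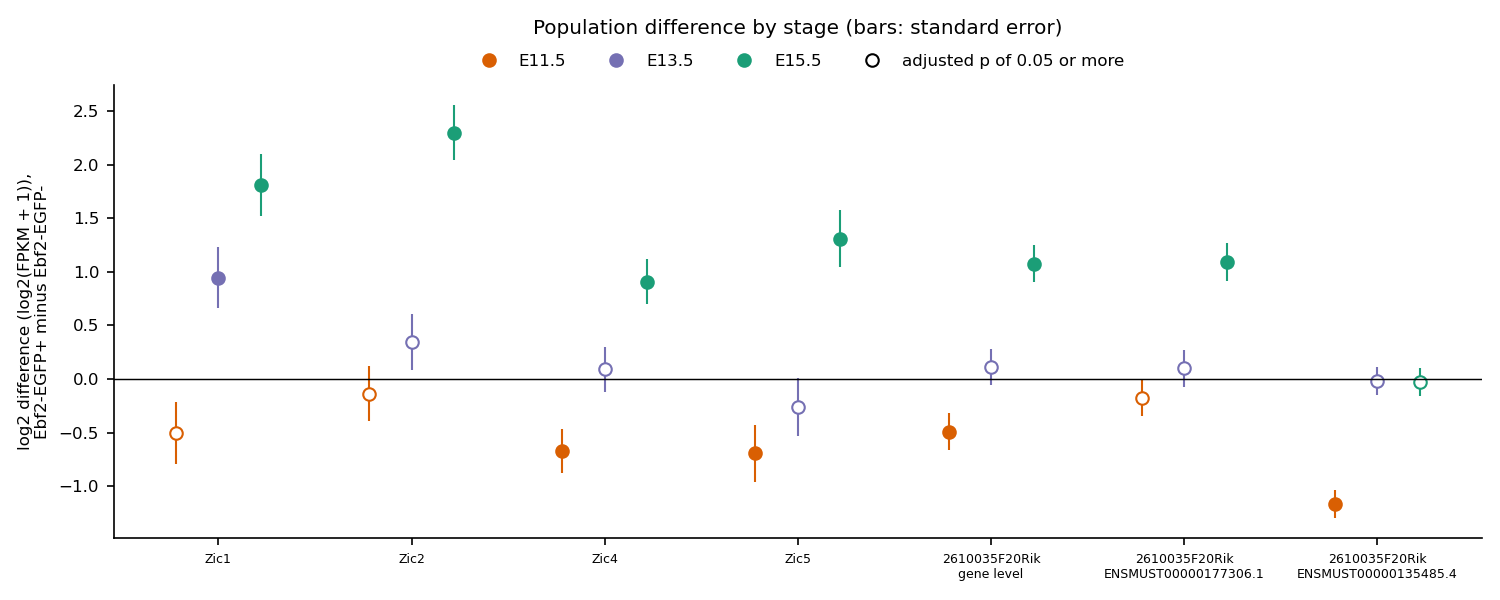
Difference between Ebf2-EGFP+ and Ebf2-EGFP- cells on the log2(FPKM + 1) scale, by stage, for the Zic genes, the gene-level value of 2610035F20Rik and its 2 transcripts; bars are standard errors and open points have an adjusted p of 0.05 or more. Zic2 goes from -0.14 at E11.5, with 0.12 under median-of-ratios scaling, to 2.30 at E15.5, while ENSMUST00000135485.4 stands at -1.16 at E11.5 and near 0 later, where its E13.5 value of -0.02 is 0.01 under that scaling, as is the E11.5 value of -0.17 of ENSMUST00000177306.1.

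Whether the population difference itself changed between stages was tested with interaction terms. From E11.5 to E15.5 it rose for 4 of 4 Zic genes, beside 32% of all genes. The change was 2.44 (SE 0.36, adjusted p 2.37e-04) for Zic2, 2.31 (SE 0.41, adjusted p 6.19e-04) for Zic1, 2.0 (SE 0.38, adjusted p 9.67e-04) for Zic5 and 1.58 (SE 0.29, adjusted p 8.41e-04) for Zic4. This count was 4 in every alternative run for it.

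The steps in between were called for fewer genes. From E11.5 to E13.5 the difference rose for 1 of 4 genes, Zic1 (1.45, SE 0.41, adjusted p 0.0170), beside 15.6% of all genes. The replicate number as a block gave 2518 of 4859 genes called in either direction, against 1709 without it. The count of Zic genes was then 2, with Zic4 (0.76, adjusted p 0.0247). It was 0 without E11.5 Ebf2-EGFP+ replicate 1, E11.5 Ebf2-EGFP- replicate 2, E13.5 Ebf2-EGFP+ replicate 1 or E13.5 Ebf2-EGFP- replicate 2, where Zic1 had values of 1.38, 1.38, 1.23 and 1.04 with adjusted p from 0.0574 to 0.0626. It was 2 without E13.5 Ebf2-EGFP- replicate 1 or either E15.5 Ebf2-EGFP- library.

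From E13.5 to E15.5 the difference rose for 2 of 4 genes, Zic2 (1.95, SE 0.36, adjusted p 0.00980) and Zic5 (1.57, SE 0.38, adjusted p 0.0230), beside 9.14% of all genes. With the replicate number as a block, 1775 of 4859 genes were called in either direction, against 610 without it. The count of Zic genes was then 4, with Zic1 (0.86, adjusted p 0.0205) and Zic4 (0.82, adjusted p 0.0270). It was 4 without E13.5 Ebf2-EGFP- replicate 2 or E15.5 Ebf2-EGFP- replicate 1. It was 1 without E13.5 Ebf2-EGFP+ replicate 2, E13.5 Ebf2-EGFP- replicate 1, E15.5 Ebf2-EGFP+ replicate 2 or E15.5 Ebf2-EGFP- replicate 2, where Zic5 had values of 1.48, 1.13, 1.59 and 1.36 with adjusted p from 0.0611 to 0.0809.

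Within each population the loss of Zic RNA from E11.5 to E13.5 was common to these genes. In Ebf2-EGFP+ cells 4 of 4 genes fell, beside 36.1% of all genes, by -1.41 (Zic2 and Zic5) to -2.37 (Zic4). Over all genes of that comparison 1057 were higher and 1755 lower, and 1343 and 1446 under median-of-ratios scaling, which raised its median by 0.16. In Ebf2-EGFP- cells 4 of 4 fell, beside 33.5% of all genes, from -1.84 for Zic5 to -3.74 for Zic1. Because the scale understates changes at low FPKM, these orders are not orders of fold change. In Ebf2-EGFP- cells the mean of Zic4 went from 10.1 to 0.274 FPKM, a larger fold change than that of Zic1, from 60.6 to 3.80.

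From E13.5 to E15.5 the change differed between the populations for Zic2 and Zic5 by the interaction test. Zic1 and Zic4 passed that test only in some alternatives, among them the replicate block, which treats libraries with a shared number as pairs. In Ebf2-EGFP+ cells 4 of 4 genes rose, beside 24.6% of all genes, with 1.08 for Zic1 (adjusted p 0.0113), 0.98 for Zic4 (0.00296), 0.92 for Zic5 (0.0167) and 0.71 for Zic2 (0.0446). The count was 1 without E13.5 Ebf2-EGFP+ replicate 2, where Zic1 (0.0799), Zic2 (0.173) and Zic5 (0.0819) were lost, and 2 without either E15.5 Ebf2-EGFP+ library, where Zic5 was lost in both (0.0667 and 0.0568), Zic1 without replicate 1 (0.05005) and Zic2 without replicate 2 (0.243). The call of Zic2 was also lost without any E11.5 library (adjusted p from 0.0613 to 0.0632), without E13.5 Ebf2-EGFP+ replicate 1 (0.0931) and with a pseudocount of 0.1 (0.0582). In Ebf2-EGFP- cells 2 of 4 fell, beside 34.8% of all genes, Zic2 by -1.24 (adjusted p 0.00184) and Zic5 by -0.65 (0.0498). Zic1 and Zic4 were not called there, at 0.21 (adjusted p 0.534) and 0.16 (0.504). Both changed sign without E13.5 Ebf2-EGFP- replicate 2 or E15.5 Ebf2-EGFP- replicate 1. The call of Zic5 was lost, and the count 1, under median-of-ratios scaling, in a fit of the compared groups only (adjusted p 0.104), and, with adjusted p from 0.0555 to 0.506, when any library other than E13.5 Ebf2-EGFP- replicate 2 or E15.5 Ebf2-EGFP- replicate 1 was left out.

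Over the whole span, 3 of 4 Zic genes were lower at E15.5 than at E11.5 in Ebf2-EGFP+ cells, beside 42.1% of all genes, and 4 of 4 in Ebf2-EGFP- cells, beside 47.6%. In Ebf2-EGFP+ cells the called changes were -0.70 for Zic2 (adjusted p 0.0269), -1.21 for Zic1 (0.00239) and -1.38 for Zic4 (8.48e-05), and Zic5 changed by -0.49 (0.113, or 0.0265 with the replicate number as a block, and 0.0435 and 0.0445 without E13.5 Ebf2-EGFP- replicate 1 or 2). Zic2 was not called in Ebf2-EGFP+ cells under median-of-ratios scaling (-0.47, adjusted p 0.0859), without E11.5 Ebf2-EGFP+ replicate 1 (-0.57, 0.15) or without E15.5 Ebf2-EGFP+ replicate 1 (-0.50, 0.177). In Ebf2-EGFP- cells the changes ran from -2.50 for Zic5 to -3.53 for Zic1, on the scale that understates changes at low FPKM. The E15.5 rise in Ebf2-EGFP+ cells thus did not reach the E11.5 level for Zic1, at 17.7 against 42.5 FPKM.

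Of the 2 lncRNA transcripts, the one that starts beside Zic2 was higher in Ebf2-EGFP+ cells at E15.5, as the Zic genes were, and the other was not. ENSMUST00000177306.1 was 2.05 and 2.86 FPKM in Ebf2-EGFP- and 2.11 and 1.97 in Ebf2-EGFP+ libraries at E11.5, and 0.715 and 0.354 against 0.511 and 0.770 at E13.5. At E15.5 it was 0.235 and 0.156 against 1.61 and 1.48 FPKM. Its populations overlapped at E11.5 and E13.5 and were apart at E15.5, with both Ebf2-EGFP+ libraries above.

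ENSMUST00000135485.4 was 2.68 and 3.37 FPKM in Ebf2-EGFP- against 0.760 and 0.821 in Ebf2-EGFP+ libraries at E11.5. Later it was at or under 0.221 FPKM in every library, with 0.221 and 0.0268 against 0.172 and 0.0437 at E13.5. The E15.5 values were 0.0931 and 0.0826 against 0.0772 and 0.0603. This transcript was thus high in the E11.5 Ebf2-EGFP- cells, and at E15.5, where the Ebf2-EGFP+ cells had Zic2 and the other transcript, it was no higher in them. The E15.5 Ebf2-EGFP+ group had its lowest mean, but lay within the range of both E13.5 groups, which held the 2 lowest libraries.

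**Figure D4:**
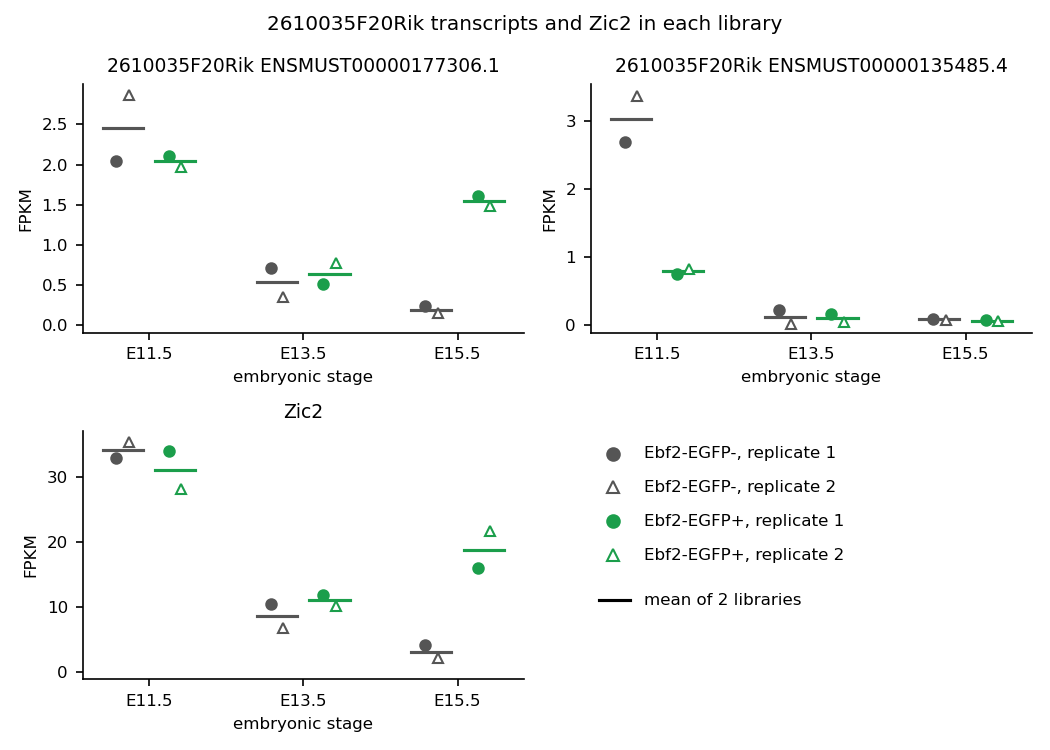
FPKM of both 2610035F20Rik transcripts and of Zic2 in each of the 12 libraries by embryonic stage; grey marks Ebf2-EGFP- and green Ebf2-EGFP+ cells, circles replicate 1, triangles replicate 2 and lines the mean of 2 libraries, with an axis for each feature. At E15.5 ENSMUST00000177306.1 is at 1.61 and 1.48 FPKM in green against 0.235 and 0.156 in grey, and ENSMUST00000135485.4 stays under 0.1 in both.

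At E15.5 1 of 2 transcripts was called higher in Ebf2-EGFP+ cells, ENSMUST00000177306.1 (1.09, SE 0.17, adjusted p 4.34e-04), beside 22% of 200 lncRNA transcripts. At E11.5 1 of 2 was called lower, ENSMUST00000135485.4 (-1.16, SE 0.13, adjusted p 2.76e-05), beside 32%. The other values of ENSMUST00000177306.1 were -0.17 (adjusted p 0.375) at E11.5, or 0.01 under median-of-ratios scaling, and 0.10 (0.649) at E13.5, where it was -0.01 without E13.5 Ebf2-EGFP+ replicate 2 and -0.07 without E13.5 Ebf2-EGFP- replicate 2. Those of ENSMUST00000135485.4 were -0.02 (0.941) at E13.5, or 0.01 under that scaling, and -0.03 (0.884) at E15.5, and the E13.5 value was 0.07 without E13.5 Ebf2-EGFP+ replicate 2 and 0.11 without E13.5 Ebf2-EGFP- replicate 1. Of all 200 lncRNA transcripts, 50 were called higher and 62 lower in the Ebf2-EGFP+ population of E13.5, and 71 and 49 under that scaling.

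The change of the population difference from E11.5 to E15.5 was called for 2 of 2 transcripts, beside 21.5% of lncRNA transcripts, at 1.27 (SE 0.25, adjusted p 0.00208) for ENSMUST00000177306.1 and 1.14 (SE 0.19, adjusted p 6.32e-04) for ENSMUST00000135485.4. They took it at different steps. ENSMUST00000135485.4 changed from E11.5 to E13.5 (1.15, adjusted p 9.59e-04; 1 of 2, beside 12.5%) and ENSMUST00000177306.1 from E13.5 to E15.5 (0.99, adjusted p 0.0370; 1 of 2, beside 2.5%). The former values were 1.77 (adjusted p 0.0650) for that step and 1.65 (adjusted p 0.0541) for the whole span with a pseudocount of 0.1. The latter lost its call when any of 9 libraries was left out, with adjusted p from 0.0549 to 0.157, and kept it without either E11.5 Ebf2-EGFP- library or E13.5 Ebf2-EGFP- replicate 2.

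By stage, 2 of 2 transcripts fell from E11.5 to E13.5 in Ebf2-EGFP+ cells, beside 21% of lncRNA transcripts, and 2 of 2 in Ebf2-EGFP- cells, beside 18%. From E13.5 to E15.5 ENSMUST00000177306.1 rose in Ebf2-EGFP+ cells by 0.64 (adjusted p 0.0217), 1 of 2 beside 18.5%, a call lost without E13.5 Ebf2-EGFP+ replicate 1 (0.15), E15.5 Ebf2-EGFP+ replicate 1 (0.0997) or E15.5 Ebf2-EGFP+ replicate 2 (0.0649) and in a fit of the compared groups only (0.0852). At E15.5 ENSMUST00000135485.4 was below its E11.5 level in Ebf2-EGFP+ cells, 1 of 2 beside 25%, and both transcripts were below it in Ebf2-EGFP- cells, 2 of 2 beside 25%. In the latter comparison 74 lncRNA transcripts were higher and 50 lower, and 90 and 39 under median-of-ratios scaling.

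As shares of the summed FPKM of both transcripts, ENSMUST00000135485.4 held 56.7% and 54.1% in the E11.5 Ebf2-EGFP- libraries and 26.5% and 29.4% in the E11.5 Ebf2-EGFP+ libraries. At E15.5 it held 4.57% and 3.91% in Ebf2-EGFP+ libraries, and 28.4% and 34.7% in Ebf2-EGFP- libraries, where the sum was 0.329 and 0.238 FPKM. The gene-level value of 2610035F20Rik was 2.90 and 4.25 FPKM in Ebf2-EGFP- and 2.28 and 2.16 in Ebf2-EGFP+ libraries at E11.5, 0.754 and 0.358 against 0.563 and 0.776 at E13.5. The E15.5 values were 0.257 and 0.166 against 1.62 and 1.49. It was thus close to ENSMUST00000177306.1 after E11.5. The gene-level value lay below the summed FPKM of both transcripts in every library, as in the E11.5 Ebf2-EGFP- libraries with sums of 4.73 and 6.23. Its differences were -0.49 (adjusted p 0.0190) at E11.5, 0.11 (0.568, or -0.07 without E13.5 Ebf2-EGFP- replicate 2) at E13.5 and 1.08 for E15.5 (2.98e-04), and the E11.5 call was lost with a pseudocount of 0.1 (0.0986), under median-of-ratios scaling (0.125), and without E11.5 Ebf2-EGFP+ replicate 1 (0.0516), E11.5 Ebf2-EGFP+ replicate 2 (0.0759) or E11.5 Ebf2-EGFP- replicate 2 (0.191). The change of its difference from E13.5 to E15.5 was 0.97 (adjusted p 0.0267). That call was lost when any of 6 libraries was left out, with adjusted p from 0.0515 to 0.117, namely either E13.5 or E15.5 Ebf2-EGFP+ library, E13.5 Ebf2-EGFP- replicate 1 or E15.5 Ebf2-EGFP- replicate 2.

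Likeness was measured as Pearson's r of log2(FPKM + 1) over the 12 libraries, as a description, since libraries of a group share their stage and population. Zic2 and ENSMUST00000177306.1 had r = 0.953 (Spearman's rho 0.965), and 0.899 over the 8 libraries of E13.5 and E15.5. That transcript was as close to Zic5 (0.954, and 0.905 over the 8 libraries) and near to Zic1 (0.946 and 0.861) and Zic4 (0.913 and 0.825). Zic2 and ENSMUST00000135485.4 had r = 0.686 (rho 0.685), and 0.0873 over those 8 libraries, so that value rests on the E11.5 libraries. The latter transcript had r = 0.893 with Zic4, 0.850 with Zic5 and 0.810 with Zic1, and over the 8 libraries -0.0677, 0.260 and 0.0427. Among the Zic genes r ran from 0.850 (Zic2 with Zic4) to 0.966 (Zic1 with Zic4), and over the 8 later libraries from 0.668 (Zic2 with Zic4) to 0.900 (Zic1 with Zic4). The E11.5 libraries stand apart from the rest in Zic level, and the 8 libraries were taken alone after the values were seen.

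The 10 coding genes most like Zic1 were Sulf2 (r = 0.978), which edits heparan sulfate, Bmp7 (0.973), a BMP ligand, Zic4 (0.966), Clybl (0.964), Akap12 (0.961), the roof plate factor Lmx1a (0.960), 2610035F20Rik (0.956), Ecel1 (0.954), the ephrin Efna5 (0.951) and Mmp2 (0.942), with rho from 0.867 to 0.986. Those most like Zic2 were Camk2a (0.938), 2610035F20Rik (0.934), Glipr2 (0.931), Bmp7 (0.924), Zic5 (0.919), Zic1 (0.913), Sulf2 (0.908), Zfp503 (0.903), Esrrg (0.902) and Myo5b (0.894), with rho from 0.881 to 0.972. Lowest for Zic2 was the netrin receptor gene Unc5d (-0.972), then Ly6g6e (-0.969) and Mllt3 (-0.964). Over the 8 later libraries 2 of the 10 genes for Zic1 and 0 of the 10 for Zic2 stayed among the 10 highest, although the r of those named for Zic2 ran from 0.783 to 0.910 there.

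Sulf2 and Bmp7 were among the 10 for 6 of the 7 features compared (4 Zic genes, the gene-level value and 2 transcripts), Ecel1 for 5 and Clybl for 4. The 10 for ENSMUST00000135485.4 were Bmp4 (0.995), Asb4 (0.994), Otx2 (0.993), Msx1 (0.992), Ddc (0.990), Six3os1 (0.990), Cgnl1 (0.989), Wnt8b (0.989), Cdc42ep5 (0.988) and Lum (0.988), their rho ran from 0.762 to 0.944 and their r over the 8 libraries ran from 0.178 to 0.926. None of these 10 was among the 10 of Zic2.

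Genes of the cortical hem went from mostly lower in Ebf2-EGFP+ cells (E11.5) to partly higher (E15.5). Of 16 listed hem genes 15 were in the table (Gdf7 was not), and in Ebf2-EGFP+ cells 12 were lower and 0 higher at E11.5. They were 4 higher and 1 lower at E13.5, then 7 higher, 0 lower and 8 not called at E15.5, where 25.8% of all genes were higher. Beside the E11.5 count stand 44.9% of all genes lower. No test compared the hem genes with the Zic genes. The median difference of the hem genes was -1.2, -0.05 and 0.63 at the 3 stages, beside -0.19, -0.19 and -0.11 for all genes. Under median-of-ratios scaling the counts were 1 higher and 11 lower, 4 and 0, and 9 and 0, and 1 gene changed sign, at E11.5. With features of a mean FPKM of at least 1 only, 6 hem genes were lower at E11.5. The E13.5 count of lower genes, Dkk3 alone, was 4 without E13.5 Ebf2-EGFP- replicate 2 and 0 without any of the E11.5 libraries or any other E13.5 library, and the E11.5 count of higher genes was 1 without E15.5 Ebf2-EGFP+ replicate 1 or 2.

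The hem genes higher at E15.5 were Wnt5a, Bmp5, Bmp7, Lmx1a, Rspo2, Rspo3 and Dkk3. Bmp5 stood at 0.119 and 0.0565 FPKM in Ebf2-EGFP- against 1.95 and 5.50 in Ebf2-EGFP+ libraries (2.01, adjusted p 1.15e-04), and Lmx1a at 0.263 and 0.0924 against 1.35 and 1.37 (1.01, adjusted p 3.93e-04). Rspo1, which encodes an enhancer of WNT signalling, was 26.7 and 28.4 FPKM against 2.02 and 1.97 at E11.5 (-3.25, adjusted p 1.42e-06). The summed FPKM of the hem genes, led by Rspo3, was 139 and 144 in Ebf2-EGFP- against 55.0 and 64.2 in Ebf2-EGFP+ libraries at E11.5, 16.8 and 7.85 against 31.6 and 29.0 at E13.5. The E15.5 sums were 24.1 and 16.6 against 50.6 and 57.8. Wnt3a, Bmp4, Msx1 and Msx2 were listed at 0 in 1 or more libraries after E11.5. The part of hem-derived cells in the Zic values was not tested.

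**Figure D5:**
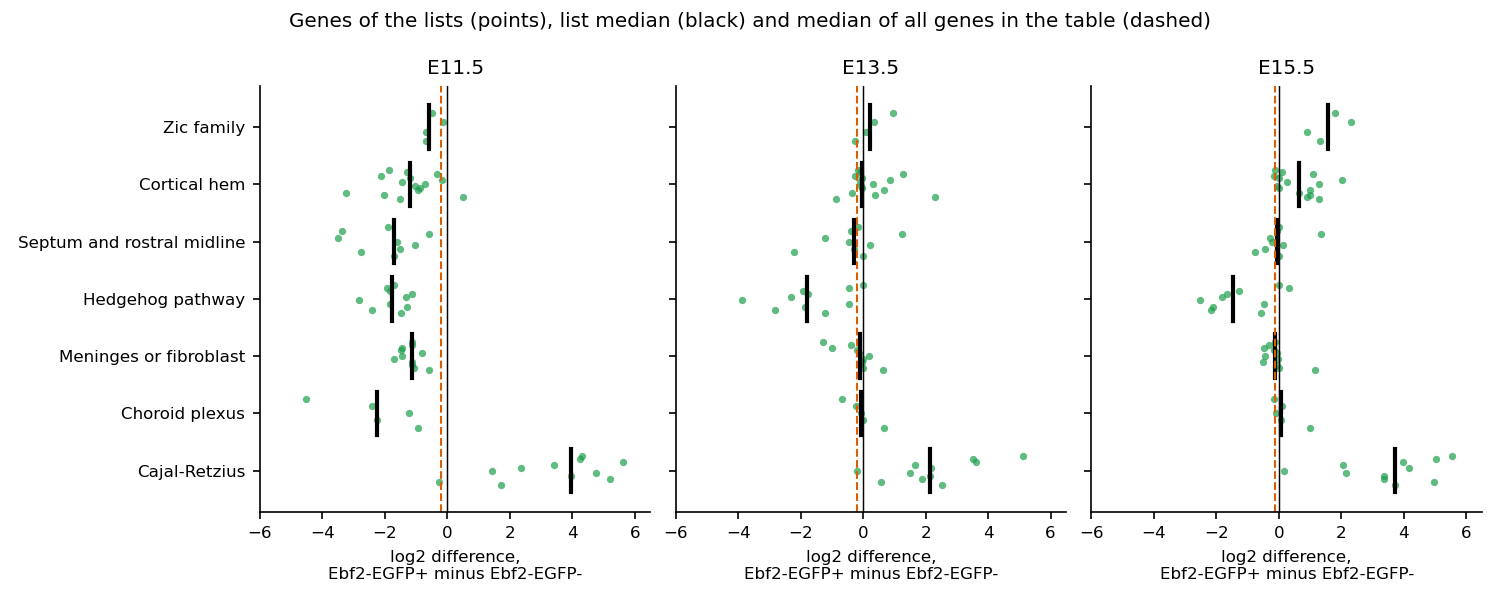
Difference between Ebf2-EGFP+ and Ebf2-EGFP- cells on the log2(FPKM + 1) scale for each gene (green points) of 7 lists, by stage; black bars are list medians and the dashed line is the median of all 4859 genes. The hem median goes from -1.2 to 0.63 and the Zic median from -0.59 to 1.56, while 1 hem gene and Zic2 change sign at E11.5 under median-of-ratios scaling, and the Hedgehog median stays between -1.80 and -1.48.

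The list counts, those of the hem included, stand beside 36.8% of all genes higher and 44.9% lower at E11.5. The shares were 32.1% and 43.5% at E13.5, then 25.8% and 31.6% at E15.5. Of the septum and rostral midline list, 9 of 10 genes were in the table, with 8 lower and 0 higher at E11.5, 4 lower and 1 higher at E13.5, then 2 lower and 1 higher at E15.5, and medians of -1.69, -0.30 and -0.07. Fgf18, a ligand, was the gene higher at E13.5 (1.23, adjusted p 0.00159) and at E15.5 (1.33, adjusted p 0.00149). The E13.5 count of lower genes was 2 without E13.5 Ebf2-EGFP+ replicate 2 or E13.5 Ebf2-EGFP- replicate 1, and that of E15.5 was 1 without E15.5 Ebf2-EGFP+ replicate 1 and 0 without E15.5 Ebf2-EGFP- replicate 1. Over the alternatives, the E15.5 count of lower genes reached 4. The list summed to 84.8 and 88.6 FPKM in Ebf2-EGFP- against 13.8 and 12.1 in Ebf2-EGFP+ libraries at E11.5, and to 16.7 and 13.2 against 13.1 and 12.9 at E15.5, with Etv5 the most abundant. Of the Hedgehog pathway, whose GLI factors are kin to the Zic proteins, 10 of 14 genes were in the table, and 10, 9 and 8 were lower in Ebf2-EGFP+ cells by stage and 0 higher, with medians of -1.76, -1.80 and -1.48. Gli3 was 60 and 47.1 FPKM against 8.38 and 9.86 at E11.5 and 8.80 and 5.31 against 0.881 and 0.581 at E15.5. Under median-of-ratios scaling 1 Hedgehog gene was higher and 7 lower at E15.5, and no gene of this list changed sign.

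The 13 of 22 Eph receptors and ephrins in the table split, with 6 higher and 5 lower at E11.5 (3 lower without E11.5 Ebf2-EGFP- replicate 1), 5 and 5 at E13.5, then 4 and 7 at E15.5. Their medians were 0.39, 0.11 and -0.68. Efna5, which was among the genes most like Zic1, was 1.37 and 1.12 FPKM against 3.47 and 3.43 at E15.5 (0.99, adjusted p 5.61e-04), and Ephb1 13.9 and 11.1 against 43.6 and 42.6 (1.71, adjusted p 2.12e-05). Of 13 of 13 cortical patterning factors, 3 were higher and 4 lower at E11.5, 0 and 8 at E13.5, then 2 and 5 at E15.5, with medians of -0.25 (0.01 under median-of-ratios scaling), -0.92 and -0.40. The E11.5 count of higher factors was 1 without any of the 4 E11.5 libraries. The E13.5 count of lower ones was 5 without E13.5 Ebf2-EGFP+ replicate 2 or E13.5 Ebf2-EGFP- replicate 1, and that of E15.5 was 8 with the replicate number as a block. The 2 that were higher at E15.5 were Emx2 (1.21, adjusted p 0.00553) and Nr2f2 (0.96, adjusted p 0.00217).

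Markers of other cells that express Zic genes were high in the E11.5 Ebf2-EGFP- libraries. Of 14 meningeal or fibroblast markers 11 were in the table, and 11 were lower in Ebf2-EGFP+ cells at E11.5, with sums of 141 and 122 FPKM against 45.4 and 52.1 and Col3a1 the most abundant. At E13.5 their sums were 6.21 and 4.41 against 2.95 and 2.12 (1 higher, 2 lower). The E15.5 sums were 4.47 and 4.01 against 3.04 and 4.73 (1 higher, 2 lower), where the meningeal marker Aldh1a2 was listed at 0 in all 4 libraries. That count of lower markers was 1 without any library other than E13.5 Ebf2-EGFP- replicates 1 and 2 and E15.5 Ebf2-EGFP+ replicate 2. The E11.5 count was 6 with features of a mean FPKM of at least 1 only. Of 8 choroid plexus markers 5 were in the table, with 5 lower at E11.5, then 1 higher at each later stage, and 0 lower at E13.5 (2 without E13.5 Ebf2-EGFP- replicate 2). Their sums, led by Ttr, were 64.1 and 88.1 against 7.63 and 8.65 FPKM at E11.5. They were 4.43 and 0.366 against 2.37 and 1.02 at E13.5, and 0.912 and 0.357 against 1.86 and 1.63 at E15.5. Ttr was listed at 0 in both E15.5 Ebf2-EGFP+ libraries. Lmx1a, which is on the hem list too, was the marker higher at E15.5 and made up most of both E15.5 Ebf2-EGFP+ sums. The part of meningeal and choroid plexus cells in the E11.5 Zic values was not tested.

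In the E13.5 and E15.5 Ebf2-EGFP- cells replicate 1 was above replicate 2 for all 4 Zic genes. The sums of the hem, choroid plexus and radial glia markers differed in the same direction. So did those of the septum and rostral midline, Hedgehog, Eph, patterning, meningeal, ganglionic eminence and thalamic lists. The endothelial and microglial sums went the other way, as did the CR sum at E13.5 and the erythroid sum at E15.5. The factors of the median-of-ratios scaling were larger for replicate 1 too, at 1.15 and 1.07 for E13.5 and 1.09 and 0.956 for E15.5. All 8 of 8 radial glia markers were called lower in the Ebf2-EGFP+ population throughout, and their sums, led by Vim, were 1624 and 1341 FPKM in Ebf2-EGFP- against 430 and 406 in Ebf2-EGFP+ libraries at E11.5, 1575 and 1053 against 222 and 201 at E13.5. The E15.5 sums were 817 and 456 against 152 and 89.0. Their part in the spread of the Zic values was not tested.

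The remaining lists give the makeup of the sorted cells. The summed CR markers, led by Reln, were 25.6 and 28.1 FPKM in Ebf2-EGFP- against 465 and 423 in Ebf2-EGFP+ libraries at E11.5, 16.3 and 16.5 against 218 and 269 at E13.5. The E15.5 sums were 27.2 and 19.2 against 614 and 1279. Of 12 of 12 ganglionic eminence or interneuron genes, 12, 10 and 9 were lower in Ebf2-EGFP+ cells by stage, with sums of 123 and 99.0 against 5.21 and 5.46 FPKM at E15.5. Of 6 of 8 thalamic or diencephalic genes, 3 were higher and 3 lower at E11.5, 2 and 1 at E13.5, then 1 and 1 at E15.5. The E13.5 count of higher genes was 0 without E13.5 Ebf2-EGFP+ replicate 1 and 1 without E13.5 Ebf2-EGFP- replicate 2, and that of E15.5 was 2 with the replicate number as a block or without replicate 1 of either E15.5 population. Of 3 of 6 endothelial genes, 3 were lower at E11.5, 0 at E13.5, then 1 at E15.5. The E13.5 count was 1 without either E11.5 Ebf2-EGFP- library or E13.5 Ebf2-EGFP+ replicate 1, and that of E15.5 was 2 without either E13.5 Ebf2-EGFP+ library. The table held 1 of 6 microglial genes, Aif1, which was called higher at E13.5 and E15.5, and 3 of 8 erythroid genes, of which 3, 1 and 1 were lower by stage. No gene of any list that was called in a population comparison changed sign under median-of-ratios scaling.

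Within 200 kb of a Zic gene the lncRNA table held 1 other transcript, Gm29478 ENSMUST00000191272.1, 15125 bases from Zic4. It was 2.86 and 5.65 FPKM in the E11.5 Ebf2-EGFP- libraries against 0.597 and 0.491 in the Ebf2-EGFP+ libraries (-1.71, adjusted p 3.36e-05). It was listed at 0 in 7 of the 8 later libraries and at 0.0708 FPKM in E13.5 Ebf2-EGFP+ replicate 2. The coding table held 3 genes in that window, all near Zic2 and Zic5. Clybl, 73200 bases from Zic2, was 7.43 and 8.86 FPKM against 4.30 and 3.84 at E11.5 (-0.85, adjusted p 0.00446) and 1.2 and 0.428 against 1.73 and 1.81 at E15.5 (0.64, adjusted p 0.0303). Pcca and Gm5089, which were chosen after their values were seen, differed by -0.80 (adjusted p 0.00301) and -2.15 (adjusted p 2.09e-05) at E11.5. Their later differences were -0.22 (0.337) and -0.82 (0.0169) at E13.5, then -0.03 (0.901) and 0.02 (0.951) at E15.5.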

How the data were processed

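RNA of FACS-sorted cortical cells was measured in 12 libraries, 2 for each of 6 groups. The authors selected polyadenylated RNA with oligo-dT beads, made libraries with a NEBNext mRNA kit, aligned reads with TopHat 2.0.8b to mm10 and deposited FPKM values from Cufflinks 2.2.0, for coding genes on a UCSC and for lncRNAs on an Ensembl annotation. The deposited tables hold only features the authors called differential, by DE-Seq or Cuffdiff (both are named), and their columns of means, fold changes and p-values were not used.

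Differences were computed with limma 3.58.1 (R 4.3.3) on log2(FPKM + 1), with the 12 libraries as 6 groups, moderated with a trend, no filter on low values, 12 comparisons and Benjamini-Hochberg adjustment over each table and comparison. The fit and the depth estimate were tested on simulated data. Alternatives were a pseudocount of 0.1, median-of-ratios scaling, a mean FPKM of at least 1, no trend, the compared groups only, a replicate block and leaving out each library. The members and lists were chosen with earlier results of these data known. Named were the members, the 10 coding genes and 3 lncRNA transcripts of highest and the 3 coding genes of lowest r to each, the genes of the 15 lists, and other lncRNAs within 200 kb of a Zic gene. Coding genes in that window were added beyond this rule. Some results are not reported here.

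Both populations of a stage share replicate numbers in the labels. After group means were subtracted, libraries with a shared number had correlations of 0.431, 0.534 and 0.431 over the coding genes and of 0.265, 0.385 and 0.435 over the lncRNA transcripts at the successive stages. All 6 exceed 0.1, and the libraries were therefore treated as pairs in the replicate block. The main values come from the fit without pairs, and those of the block are given as an alternative. Relative depth was estimated from ratios of low FPKM values, 38.0% of 3161 of which lay within 0.5% of a ratio of whole numbers up to 4, against 2.79% by width alone. The tolerance and the search were adjusted while the estimate was developed, and the runner-up had up to 92.2% of the support of the best value, so the relative depth of the libraries could not be settled. Python 3.11.15 with pandas 2.3.3, numpy 2.4.6 and matplotlib 3.10.9 was used for counts and figures.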

Additional observations from a re-analysis of the deposited data

Results flagged for a closer look

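Whether the population difference (Ebf2-EGFP+ minus Ebf2-EGFP-, log2(FPKM + 1) scale) changed between stages was tested by limma's interaction terms, and 13 changes passed an adjusted p of 0.05. No cause was tested. From E11.5 to E13.5 the difference rose by 1.45 for Zic1 and 1.15 for ENSMUST00000135485.4, 2 results. From E13.5 to E15.5 the difference rose by 1.95 for Zic2, 1.57 for Zic5, 0.97 for the gene-level value of 2610035F20Rik and 0.99 for ENSMUST00000177306.1, 4 results. From E11.5 to E15.5 the difference rose by 2.31 for Zic1, 2.44 for Zic2, 1.58 for Zic4, 2.0 for Zic5, 1.57 for the gene-level value of 2610035F20Rik, 1.27 for ENSMUST00000177306.1 and 1.14 for ENSMUST00000135485.4, 7 results. The gene-level change from E13.5 to E15.5 lost its call when any of 6 libraries was left out, with adjusted p from 0.0515 to 0.117.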

How the results depend on the processing

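Over the alternatives, 1363 results for single members kept their direction and their side of the threshold, 74 lost a call, 22 gained one and 20 changed sign. Counts of called Zic genes stayed within 1.5 times in 388 cases and moved further in 38, counts of all called features in 391 and 35, and counts over the gene lists in 1445 and 67. The cause of these changes was not tested. Moderation without a trend changed none of these results. Leaving out every feature with a mean FPKM under 1 drops ENSMUST00000135485.4, which has no value there, and the interactions have no fit of the compared groups only. Counts over the gene lists that changed are counted above and not listed again below.

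With a pseudocount of 0.1 these results changed. In the E11.5 population comparison the values were -0.75 for Zic4 (adjusted p 0.169), -0.80 for Zic5 (adjusted p 0.111), -0.64 for 2610035F20Rik (adjusted p 0.0986) and 0 for Zic genes called lower. For E15.5 minus E13.5 in Ebf2-EGFP+ cells the value was 0.75 for Zic2 (adjusted p 0.0582). For E15.5 minus E13.5 in Ebf2-EGFP- cells the value was -1.02 for 2610035F20Rik (adjusted p 0.0204). For the interaction of E11.5 with E13.5 the value was 1.77 for ENSMUST00000135485.4 (adjusted p 0.065). For the interaction of E13.5 with E15.5 the value was 7 for all called lncRNA transcripts. For the interaction of E11.5 with E15.5 the value was 1.65 for ENSMUST00000135485.4 (adjusted p 0.0541). The limma count of 0 lower Zic genes was also 0 at an unadjusted p under 0.05.

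These results changed under median-of-ratios scaling. At E11.5, between the populations, the values were 0.12 for Zic2 (adjusted p 0.658), -0.44 for Zic4 (adjusted p 0.055), -0.46 for Zic5 (adjusted p 0.0959), -0.29 for 2610035F20Rik (adjusted p 0.125), 0 for Zic genes called lower and 0.0055 for ENSMUST00000177306.1 (adjusted p 0.976). At E13.5, between the populations, the values were 0.63 for Zic2 (adjusted p 0.028), 2 for Zic genes called higher and 0.012 for ENSMUST00000135485.4 (adjusted p 0.946). Between E11.5 and E15.5 in Ebf2-EGFP+ cells the value was -0.47 for Zic2 (adjusted p 0.0859). Between E13.5 and E15.5 in Ebf2-EGFP- cells the values were -0.58 for Zic5 (adjusted p 0.0531) and 1 for Zic genes called lower. The limma count of 0 lower Zic genes was 1 at an unadjusted p under 0.05.

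These results changed in fits of the compared groups only. In the E11.5 population comparison the value was -0.50 for Zic1 (adjusted p 0.00432). For E15.5 minus E11.5 in Ebf2-EGFP+ cells the value was -0.49 for Zic5 (adjusted p 0.035). For E15.5 minus E13.5 in Ebf2-EGFP- cells the values were -0.65 for Zic5 (adjusted p 0.104), 1 for Zic genes called lower and 0 for all called lncRNA transcripts. For E15.5 minus E13.5 in Ebf2-EGFP+ cells the values were 0.64 for ENSMUST00000177306.1 (adjusted p 0.0852) and 0 for all called lncRNA transcripts. By limma both counts of 0 lncRNA transcripts were 72 at an unadjusted p under 0.05.

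With the replicate number as a block (replicate block, paired libraries) these results changed, with 4 counts over the gene lists, and no other call of a member did. At E11.5, between the populations, the value was -0.50 for Zic1 (adjusted p 0.0168). Between E11.5 and E15.5 in Ebf2-EGFP+ cells the value was -0.49 for Zic5 (adjusted p 0.0265). In the E11.5 to E13.5 interaction the values were 0.76 for Zic4 (adjusted p 0.0247) and 2 for Zic genes called higher. In the E13.5 to E15.5 interaction the values were 0.86 for Zic1 (adjusted p 0.0205), 0.82 for Zic4 (adjusted p 0.027), 1775 for all called coding genes, 4 for Zic genes called higher and 32 for all called lncRNA transcripts. Between E13.5 and E15.5 in Ebf2-EGFP+ cells the value was 86 for all called lncRNA transcripts.

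Without the features of a mean FPKM under 1, this count changed, with 9 counts over the gene lists. For the interaction of E11.5 with E13.5 the value was 41 for all called lncRNA transcripts.

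Of the 10 coding genes most like each feature, those also among the 10 by Spearman's rho numbered 5 for Zic1, 5 for Zic2, 5 for Zic4, 5 for Zic5, 6 for 2610035F20Rik and 3 for ENSMUST00000135485.4. Over the 8 libraries of E13.5 and E15.5 only, an alternative chosen after seeing the data, they numbered 2 for Zic1, 0 for Zic2, 0 for Zic4, 2 for Zic5, 1 for 2610035F20Rik, 2 for ENSMUST00000177306.1 and 2 for ENSMUST00000135485.4.

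Each of the 12 libraries was left out in turn, where the lone library of a group is assumed to vary like the other groups. Ranges follow for results that changed. At E13.5, between the populations, values ran from -0.14 to 0.11 for ENSMUST00000135485.4, -0.069 to 0.27 for ENSMUST00000177306.1, -0.074 to 0.30 for 2610035F20Rik, 0 to 1 for Zic genes called higher, 0 to 1 for Zic genes called lower, 0.54 to 1.36 for Zic1, -0.12 to 0.30 for Zic4, -0.71 to 0.18 for Zic5 and 67 to 117 for all called lncRNA transcripts. In the E13.5 to E15.5 interaction values ran from -0.13 to 0.12 for ENSMUST00000135485.4, 0.82 to 1.16 for ENSMUST00000177306.1, 0.78 to 1.15 for 2610035F20Rik, 1 to 4 for Zic genes called higher, 0.45 to 1.27 for Zic1, 0.61 to 1.03 for Zic4, 1.13 to 2.02 for Zic5, 125 to 1135 for all called coding genes and 5 to 14 for all called lncRNA transcripts. Between E13.5 and E15.5 in Ebf2-EGFP- cells values ran from -0.17 to 0.083 for ENSMUST00000135485.4, -0.53 to -0.17 for 2610035F20Rik, 1 to 2 for Zic genes called lower, -0.20 to 0.62 for Zic1, -0.050 to 0.38 for Zic4, -1.10 to -0.21 for Zic5, 1962 to 3129 for all called coding genes and 18 to 64 for all called lncRNA transcripts. Between E13.5 and E15.5 in Ebf2-EGFP+ cells values ran from -0.13 to 0.034 for ENSMUST00000135485.4, 0.52 to 0.75 for ENSMUST00000177306.1, 0.52 to 0.71 for 2610035F20Rik, 1 to 4 for Zic genes called higher, 0.86 to 1.29 for Zic1, 0.50 to 0.92 for Zic2, 0.83 to 1.01 for Zic5, 1247 to 2131 for all called coding genes and 24 to 56 for all called lncRNA transcripts. At E11.5, between the populations, values ran from -0.70 to -0.28 for 2610035F20Rik, 0 to 2 for Zic genes called lower, -0.85 to -0.49 for Zic4 and -0.89 to -0.50 for Zic5. In the E11.5 to E13.5 interaction values ran from 0.39 to 0.82 for 2610035F20Rik, 0 to 2 for Zic genes called higher, 1.04 to 1.86 for Zic1, 0.55 to 0.98 for Zic4 and -0.015 to 0.88 for Zic5. Between E11.5 and E15.5 in Ebf2-EGFP+ cells values ran from -0.91 to -0.50 for Zic2, -0.62 to -0.36 for Zic5 and 66 to 104 for all called lncRNA transcripts.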
